A study of Mus musculus with 9 samples.

Results

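Adipokines are proteins that fat cells release into the blood or their surroundings. The list described here holds 8 of their genes, and each gene was read from the brightest probe set annotated to that gene alone. A probe set is a group of short DNA probes on the array that together report 1 gene. Of the 8 genes, 7 had such a probe set, 1 each, and all 7 passed the intensity filter, out of 13335 genes that passed it in the series. The remaining gene, Cfd, which encodes the complement protease adipsin, was not analysed here.

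The cells were primary cultures from interscapular brown adipose tissue, the heat-producing fat between the shoulder blades, taken at 5 weeks of age from C57BL/6 males. Cells of a precursor-rich fraction were grown and matured with insulin. The study had 3 groups of 3 cultures. In the first, cultures received 1-oleoyl lysophosphatidic acid (LPA), a signalling lipid, at 5 µM (arrays 7, 8 and 9). In the second they received HA155 at 2.5 µM (arrays 4, 5 and 6), an inhibitor of autotaxin, the secreted enzyme that makes LPA. The control cultures received the vehicle DMSO (arrays 1, 2 and 3). The comparisons ask which genes answer to the lipid and which to blocking the enzyme, per the series' design text. The treatment is tied to differentiation in that text and to 9 days in vitro in the sample labels, so how long the cells were exposed is not settled. The fraction holds whatever non-adipocyte cells the digestion released, which limits the cultures as a model of fat cells alone.

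Adiponectin and leptin are the best-known adipokines: adiponectin raises insulin sensitivity through the receptors AdipoR1 and AdipoR2, and leptin reports the size of the fat stores to the brain. Most adipokine genes are switched on as a precursor becomes a fat cell, under the transcription factors PPARγ and C/EBPα. Brown fat makes the same adipokines as white fat, as a rule with less leptin.

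The arrays of the LPA group lay apart from the others. On the first principal component of all tested genes, which held 66.7% of the variance, they stood between 19.6 and 28.7, against -15.5 to -7.28 for the HA155 and control arrays. LPA array 8 lay farthest out and correlated least with its own group (mean r = 0.988 across genes). Adipocyte markers were bright in all groups, so the adipocyte label held. Of 9 brown markers, Cox7a1, Cox8b, Ppargc1a, Prdm16 and Zic1 lay above the intensity filter in every group. The defining brown markers Ucp1, Dio2 and Elovl3 lay below the filter in every group. Cidea lay below it with LPA and in control but above it with HA155 (mean log2 intensity 4.75 with LPA, 6.39 with HA155 and 4.92 in control), and was not tested because its mean over all arrays was too low.

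With LPA, 5 of the 7 measured adipokine genes fell and none rose. The adiponectin, resistin and retinol-binding protein genes fell most, leptin and Nampt fell less, and neither Apln nor Angptl4 passed the test. Calls are limma adjusted p-values below 0.05, adjusted over all genes tested. Of all tested genes 10.8% fell by that rule, 12.2% rose and 23.0% changed in either direction. The same 5 genes had LPA arrays that all lay below all controls, as did 15.6% of tested genes, while 17.5% lay above and 33.1% did not overlap in either direction. The median log2 change of the 7 genes was -0.76, against 0.01 over all tested genes. In bulk cultures such as these, fewer fat cells and less RNA per fat cell cannot be told apart.

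Gene positions are RefSeq's on build GRCm38.p6. Retn (chr8:3655770-3659818) encodes resistin, a cysteine-rich hormone that in mice comes from fat cells and impairs insulin action. Its intensity was 736, 602 and 594 in the 3 LPA arrays, against 2351, 2542 and 2533 in the 3 control arrays. The groups were far apart, with every LPA array under every control array. Retn fell with a log2 difference of -1.95 (SE 0.09, adjusted p = 2.33e-07 by limma), to 25.9% of control, with means of 9.32 ± 0.17 with LPA and 11.27 ± 0.06 in control (SD, n = 3 each). Only 3 of the 13335 tested genes had a more negative change.

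Rbp4 (chr19:38116620-38125321) encodes the plasma carrier of retinol, which fat also secretes. Its intensity was 645, 584 and 617 in the LPA arrays, against 1596, 1621 and 1790 in the control arrays. LPA arrays were again all the lower ones. Rbp4 had a log2 difference of -1.44 (SE 0.08, adjusted p = 8.24e-07 by limma), a fall to 36.9% of control.

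Adipoq (chr16:23146536-23157968) encodes adiponectin. Intensities of 1405, 1333 and 1296 in the LPA arrays stood against 3322, 3334 and 3660 in the control arrays. The log2 difference was -1.35 (SE 0.07, adjusted p = 3.80e-07 by limma), a fall to 39.1% of control, and the spread within each group was small beside it (SD 0.06 with LPA and 0.08 in control). More negative changes were found in 29 tested genes for Rbp4 and 44 for Adipoq.

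Lep (chr6:29060221-29073876), the leptin gene, was dim. It measured 53.2, 49.6 and 42.8 in the LPA arrays, against 82.5, 82.5 and 81.1 in the control arrays. The groups did not overlap, but the LPA values straddled the level of the intensity filter (48.2), with 1 of the 3 arrays below it. Near background an array compresses changes, so the measured log2 difference of -0.76 (SE 0.08, adjusted p = 4.18e-05 by limma) has an uncertain size. Controls 1 and 2 also held 1 identical value, which may understate the spread in that group.

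Nampt (chr12:32820335-32853369) encodes an NAD-making enzyme that cells also release, known as visfatin. It measured 756, 733 and 828 in the LPA arrays, against 1028, 1012 and 1012 in the control arrays. All LPA arrays were lower, by a smaller step than for the genes above, with a log2 difference of -0.40 (SE 0.06, adjusted p = 0.000801 by limma), or 75.8% of control. Controls 2 and 3 shared 1 value here too.

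Apln (chrX:48025146-48034853) encodes apelin, a peptide that acts on the receptor APJ in vessels and heart. Its intensity was 325, 347 and 339 in the LPA arrays and 333, 323 and 307 in the control arrays. The groups overlapped. The log2 difference was 0.07 with a 95% interval from -0.06 to 0.20 (limma adjusted p = 0.436).

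Angptl4 (chr17:33774900-33781575) encodes a secreted inhibitor of lipoprotein lipase and is a classical target of the PPAR receptors. It measured 511, 459 and 567 in the LPA arrays and 555, 575 and 540 in the control arrays. LPA array 8 was the lowest of all and LPA array 9 lay within the control range. The log2 difference was -0.12, with a 95% interval from -0.29 to 0.05 (limma adjusted p = 0.290), and it was -0.05 without LPA array 8 and -0.20 without LPA array 9 (limma adjusted p = 0.663 and 0.0679). Falls as large as those of Adipoq, Rbp4 or Retn lie outside the intervals of both genes.

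**Figure D1:**
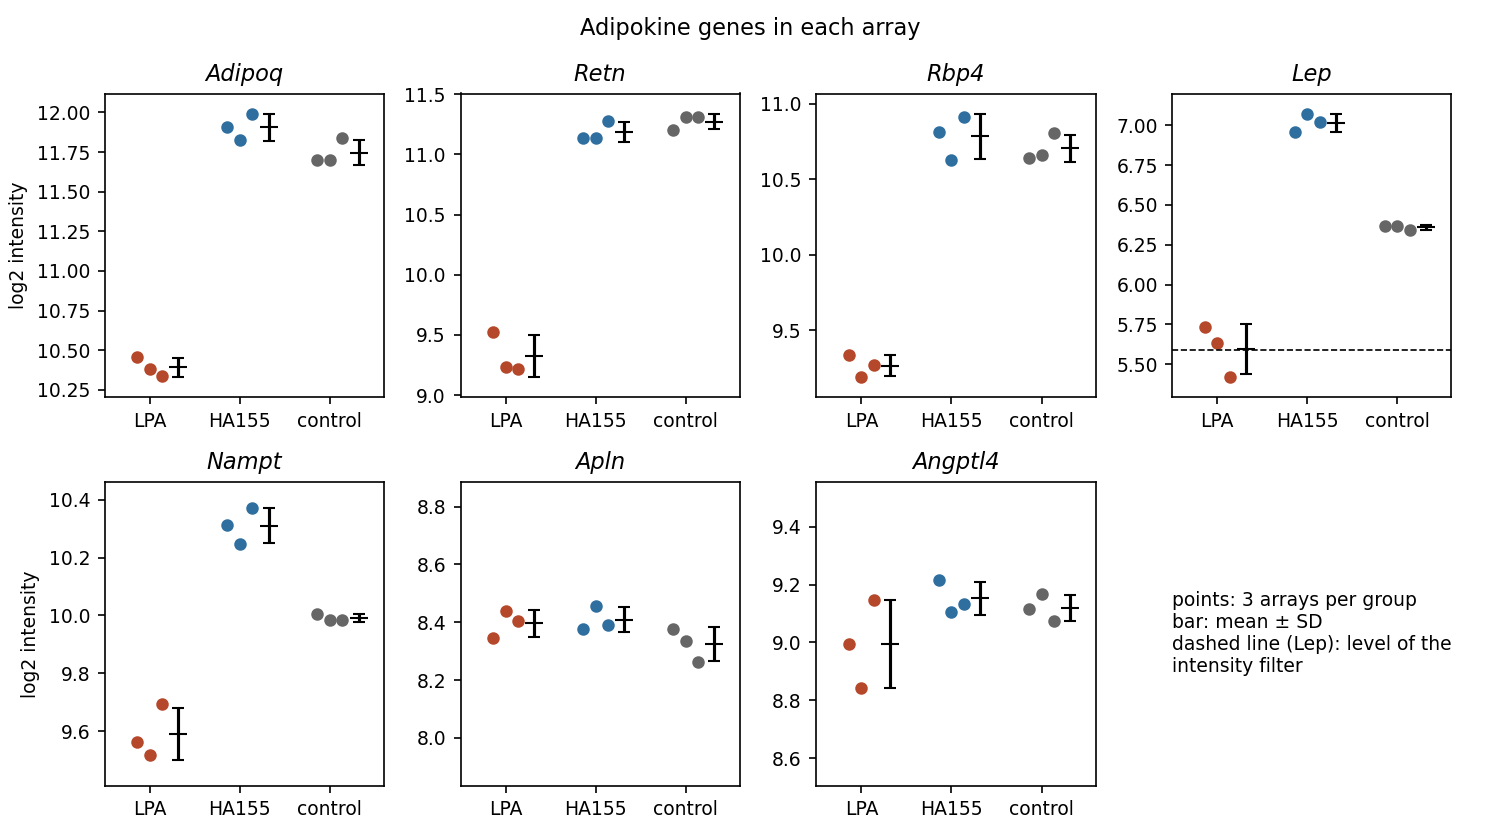
Log2 intensity of the 7 measured adipokine genes in each array (points), with the mean and SD of each group of 3 (bars), for LPA, HA155 and control. The LPA arrays lie below all others for Adipoq, Retn, Rbp4, Lep and Nampt, the HA155 arrays lie above control for Lep and Nampt, and the groups overlap for Apln and Angptl4.

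Without LPA array 8 the falls measured -1.90 for Retn, -1.40 for Rbp4, -1.35 for Adipoq, -0.78 for Lep and -0.36 for Nampt, and all 5 passed. No single array, when left out, ended any of these 5 calls.

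The promoters of the 4 genes with the largest falls with LPA are shown: Adipoq, Retn and Rbp4, which fell with LPA and overlapped control with HA155, and Lep, which differed from them by its rise with HA155. Each is the stretch of 250 bases before the annotated transcription start, 5′ to 3′ on the gene's strand, from RefSeq on build GRCm38.p6. Capitals mark matches on either strand to any of 5 short motifs: the TATA box TATAAA, the CCAAT box CCAAT, the nuclear receptor half-site AGGTCA, the hypoxia element core ACGTG and the C/EBP half-site ATTGC.
Adipoq, chr16:23146286-23146535, plus strand: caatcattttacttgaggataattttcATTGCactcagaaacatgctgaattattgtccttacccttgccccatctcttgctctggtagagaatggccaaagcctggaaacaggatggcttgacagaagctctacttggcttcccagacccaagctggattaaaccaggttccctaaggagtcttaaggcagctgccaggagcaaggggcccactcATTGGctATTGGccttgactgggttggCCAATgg
Retn, chr8:3655520-3655769, plus strand: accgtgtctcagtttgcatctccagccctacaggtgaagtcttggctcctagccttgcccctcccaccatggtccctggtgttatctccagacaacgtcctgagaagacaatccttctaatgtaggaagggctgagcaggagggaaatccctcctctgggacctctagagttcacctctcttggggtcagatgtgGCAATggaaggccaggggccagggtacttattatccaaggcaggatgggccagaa
Rbp4, chr19:38125322-38125571, minus strand: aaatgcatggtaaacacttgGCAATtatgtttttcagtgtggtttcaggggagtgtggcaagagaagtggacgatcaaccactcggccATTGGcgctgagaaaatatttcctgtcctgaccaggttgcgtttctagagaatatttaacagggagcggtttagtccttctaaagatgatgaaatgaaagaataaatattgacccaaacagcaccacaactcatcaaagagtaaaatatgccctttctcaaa
Lep, chr6:29059971-29060220, plus strand: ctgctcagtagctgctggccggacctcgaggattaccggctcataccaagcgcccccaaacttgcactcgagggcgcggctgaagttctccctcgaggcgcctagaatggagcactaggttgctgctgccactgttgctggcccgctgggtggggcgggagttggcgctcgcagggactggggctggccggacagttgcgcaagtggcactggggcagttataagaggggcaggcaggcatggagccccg

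A C/EBP half-site was found in Adipoq (1 match, from 223 to 219 bases before the start), Retn (1 match, from 55 to 51) and Rbp4 (1 match, from 230 to 226). Of all 32851 promoters of this length 23.1% held one. Adipoq held 3 CCAAT boxes within 34 bases of the start and Rbp4 held 1 from 162 to 158, against 33.8% of all promoters with at least 1. The Lep window held none of the 5 motifs in exactly these letters. It does hold gttgcgcaag and tataag, close to the C/EBP half-site and the TATA box, but near forms were not searched in any window. The search therefore does not show that Lep lacks such elements. Rbp4 has a second annotated start, whose window is not printed and held a TATA box from 28 to 23 bases before it (12.4% of all promoters). That window also held a hypoxia element core from 189 to 185 (16.6%), but no C/EBP half-site and no CCAAT box. The C/EBP and CCAAT matches of Rbp4 thus belong to the printed window alone. Nampt held a nuclear receptor half-site (4607 of the 32851 promoters) and a hypoxia element core, and Apln held none. No 2 matches overlapped. A match is a likeness of letters, not a measured binding site.

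With HA155, 2 of the 7 adipokine genes rose, Lep and Nampt, and none fell. Of all tested genes 0.607% rose by the same rule, 0.427% fell and 1.03% changed in either direction. The median log2 change of the 7 genes was 0.08, against 0.00184 over all tested genes. Both genes that rose with the inhibitor were among those that fell with the lipid. The 2 comparisons share their control arrays, so they are not independent of each other.

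Leptin's intensity was 124, 134 and 130 in the HA155 arrays, against 82.5, 82.5 and 81.1 in control. All 3 HA155 arrays stood well above the filter level and above every control. Lep rose by a log2 difference of 0.66 (SE 0.08, adjusted p = 0.00257 by limma), to 1.58 times control, and 18 tested genes had a larger rise. The adjusted p was 0.0213 or less in each of 17 alternative fits, all those in which the gene was tested.

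Nampt measured 1271, 1216 and 1325 in the HA155 arrays, against 1028, 1012 and 1012 in control. The groups did not overlap, as was so in this direction for 8.87% of all tested genes, in the other for 7.90% and in either for 16.8%. The log2 difference was 0.32 (SE 0.06, adjusted p = 0.0413 by limma), or 1.25 times control. This call was narrow. The limma adjusted p was 0.180, 0.106 and 0.220 without HA155 array 4, 5 and 6. Leaving out control 1, 2 or 3 gave 0.102, 0.180 or 0.157, and it was 0.0625 without LPA array 7, which enters only through the shared estimate of spread. The rise itself stayed between 0.29 and 0.35 when 1 array was left out.

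The other 5 genes did not pass with HA155. Adipoq measured 3835, 3623 and 4070 in the HA155 arrays, and the lowest of these lay under the highest control. Its log2 difference was 0.16, with a 95% interval from 0.01 to 0.31 before adjustment, but a limma adjusted p of 0.560. Retn measured 2253, 2248 and 2485 (log2 difference -0.09, 95% interval -0.28 to 0.10) and Rbp4 1802, 1578 and 1930 (0.08, -0.10 to 0.26). Both overlapped control, and any rise or fall of Retn or Rbp4 larger than these bounds would have been outside the interval. Apln measured 333, 351 and 336 (0.08, -0.05 to 0.21) and Angptl4 595, 551 and 562 (0.03, -0.14 to 0.20).

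**Figure D2:**
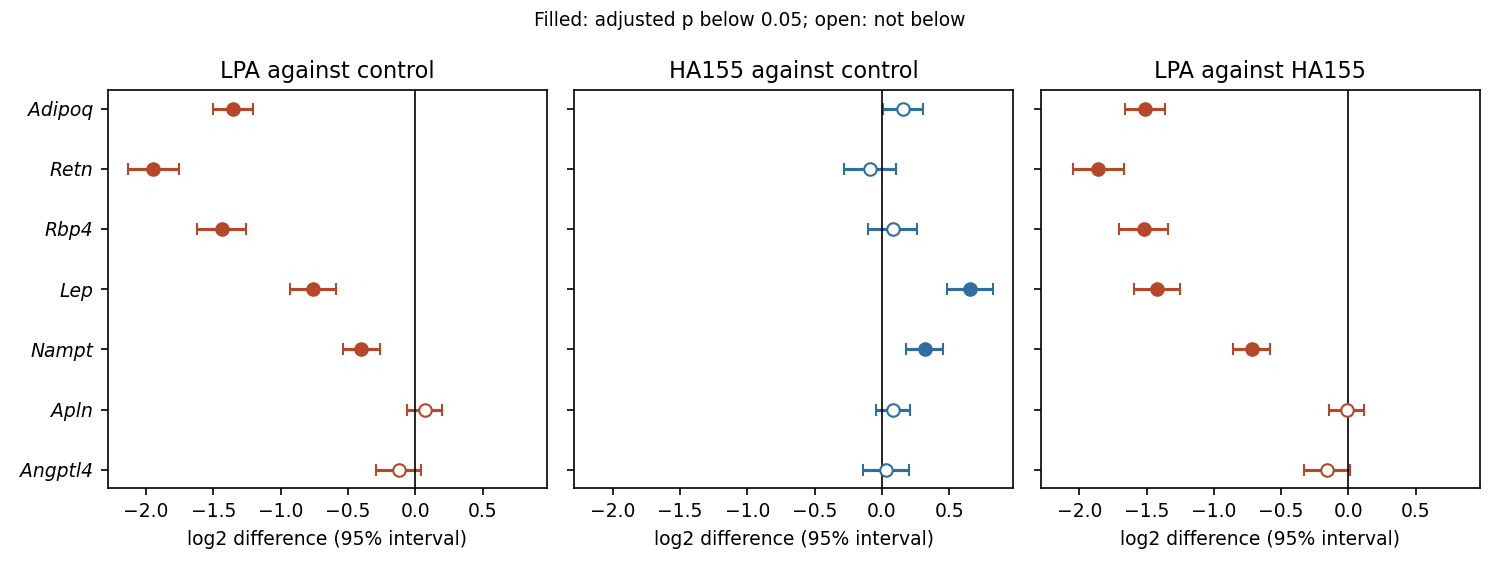
Log2 difference of each adipokine gene in the 3 comparisons, as points with 95% intervals from limma, filled where the adjusted p was below 0.05. Adipoq, Retn, Rbp4, Lep and Nampt lie left of 0 against control with LPA, while Lep (0.66) and Nampt (0.32) lie right of 0 with HA155.

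Set directly against HA155, LPA gave lower levels of the same 5 genes: Adipoq, Retn, Rbp4, Lep and Nampt. Of all tested genes 12.4% were lower in that comparison, 13.7% higher and 26.1% either. The same 5 genes did not overlap between the groups, as was so for 18.2% of tested genes in the lower direction, 20.5% in the higher and 38.7% in either. Retn was lower by a log2 difference of -1.86 (SE 0.09), Rbp4 of -1.52 (SE 0.08), Adipoq of -1.51 (SE 0.07), Lep of -1.42 (SE 0.08) and Nampt of -0.72 (SE 0.06), with limma adjusted p-values of 9.71e-06 or less. Leptin in the LPA arrays was at 37.4% of its HA155 level, although in the LPA arrays it was close to background. Apln differed by -0.01 (95% interval -0.14 to 0.12). Angptl4 differed by -0.16 (95% interval -0.33 to 0.01, limma adjusted p = 0.174), and by -0.23 (limma adjusted p = 0.0341) without LPA array 9.

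The order of the groups therefore had 3 forms. For Lep and Nampt it was LPA, control, HA155 from low to high, with each neighbouring pair apart beyond its spread, although the upper step of Nampt was the narrow one. For Adipoq, Retn and Rbp4 the LPA group was lowest, and HA155 and control overlapped. For Apln and Angptl4 no pair of groups was separated.

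The balance of leptin to adiponectin was read as the difference of their log2 intensities on each array, which shows only whether the pair changed unequally. It was -4.72, -4.75 and -4.92 in the LPA arrays, -4.95, -4.75 and -4.97 in the HA155 arrays and -5.33, -5.34 and -5.50 in the control arrays. All LPA and all HA155 arrays were above all controls. The mean was higher by 0.59 with LPA and by 0.50 with HA155 (exact two-sided permutation p = 0.1 for each, n = 3 each, the smallest this design allows). With HA155 Lep rose and Adipoq did not pass. With LPA the Lep values straddled the filter level, where an array compresses changes. A compressed fall of Lep would by itself raise this difference, so neither the size nor the direction of the LPA shift is certain.

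**Figure D3:**
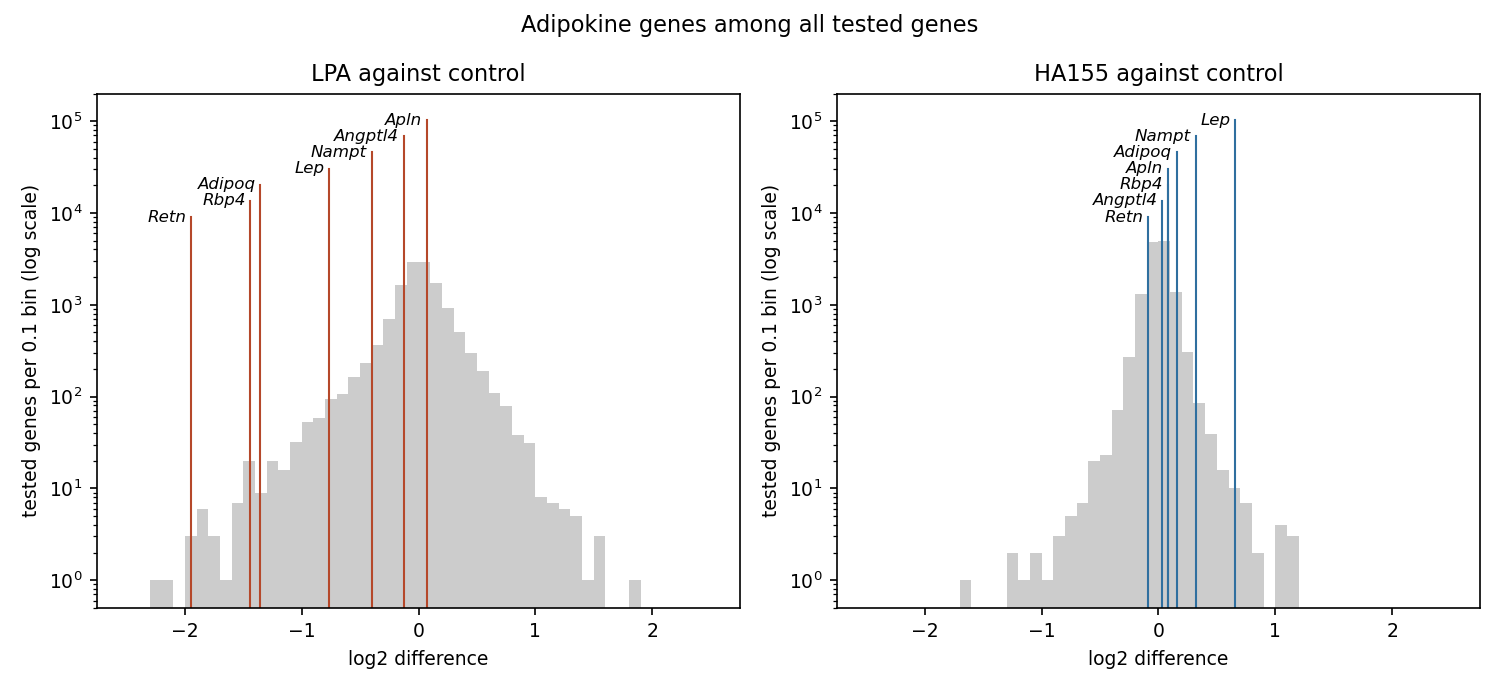
Distribution of the log2 difference over the 13335 tested genes for LPA and for HA155 against control (grey bars, log scale), with the adipokine genes as lines. Retn, Rbp4 and Adipoq stand in the far left tail with LPA, and Lep in the right tail with HA155.

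The genes whose pattern over the 9 arrays was nearest to each adipokine were found by the mean absolute difference of log2 values, each gene set to 0 at its own control mean. Adipoq and Rbp4 were each other's nearest gene, 0.06 apart, where the median gene was 0.54 from Adipoq and 0.56 from Rbp4. Next to Adipoq came Nabp1 and the triglyceride lipase gene Pnpla2 (0.06 and 0.07), and next to Rbp4 came Nabp1 and the pyruvate carboxylase gene Pcx (0.07 and 0.08). Retn lay nearest to the glycerol-3-phosphate dehydrogenase gene Gpd1 (0.09), the insulin-responsive glucose transporter gene Slc2a4 (0.10) and Adig (0.13), at a median distance of 0.72.

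Lep lay nearest to Acacb, a form of acetyl-CoA carboxylase (0.08), the transglutaminase gene Tgm2 (0.11) and Aldh3b2 (0.11), with a median distance of 0.50. Each had a mean below control with LPA and above control with HA155, which follows from their choice by nearness to Lep. For Acacb the log2 differences were -0.92 and 0.68. Nampt lay nearest to the mitochondrial glycerol-3-phosphate dehydrogenase gene Gpd2 (0.04), the phospholipase gene Pnpla8 (0.05) and Snx10 (0.06), with a median distance of 0.27. The nearest genes of Apln (Capn2, Cast and Mid2) and of Angptl4 (Map2k1, Ap1s1 and Mettl8) were 0.02 to 0.03 away, but the median gene was only 0.12 and 0.13 away, since most genes were as flat.

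The genes of the systems around the adipokines were counted in lists of their own, each count beside the share of all tested genes that rose (12.2%) or fell (10.8%) with LPA. Among receptors, 2 of 8 tested genes fell and 1 rose, with a list median of 0.00130. Adipor2, a receptor of adiponectin, fell by 0.83 (SE 0.05, limma adjusted p = 2.21e-06), and Cmklr1, a receptor of chemerin, fell by 0.35. Cap1, reported as a resistin receptor in humans, rose by 0.23, and without LPA array 8 no receptor gene rose. The other adiponectin receptor Adipor1 measured 0.07, and the apelin receptor gene Aplnr measured -0.00137 (limma adjusted p = 0.447 and 0.994). Lepr, the leptin receptor gene, lay below the intensity filter in all groups. With HA155 none of the 8 receptor genes passed.

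Of 24 tested genes for other secreted factors of fat, 8 rose and 3 fell with LPA (median 0.10). C1qtnf3, an adiponectin paralogue, rose by 0.88 (SE 0.07), and Slit2, a secreted guidance protein, by 0.81 (SE 0.08). Rarres2, which encodes chemerin, fell by 0.50 (SE 0.05). The direction within this list was thus mixed, with a paralogue of adiponectin higher where adiponectin was lower. With HA155 1 of the 24 changed, the vasodilator gene Adm, which fell by 0.63 (limma adjusted p = 0.00136). Adm was among the 8 that rose with LPA, by 0.58 (limma adjusted p = 8.84e-05).

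Of 13 genes for adiponectin folding and secretion, 3 rose and none fell with LPA (median 0.14). They were the disulphide isomerase genes Pdia6 (0.23) and Pdia4 (0.20) and Erp44 (0.21), whose product retains adiponectin in the early secretory pathway. The count was 6 without LPA array 8. None of the 13 passed with HA155. Gstk1, whose product DsbA-L promotes adiponectin assembly, had the most negative value of the list with LPA, -0.33 (limma adjusted p = 0.126). It was lower in LPA than in HA155 cultures by a log2 difference of -0.68 (limma adjusted p = 0.00405), and was chosen after its values were seen.

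For Rbp4, the list of retinol handling and signalling had 3 of 18 tested genes that rose and 3 that fell with LPA (median 0.03). Aldh1a7, an aldehyde dehydrogenase, fell by 1.30 (SE 0.11), the retinal reductase gene Rdh11 fell by 0.84 (SE 0.11), and Aldh1a2, which makes retinoic acid, rose by 0.79 (SE 0.11). The retinol-binding protein receptor Stra6 measured -0.15 (limma adjusted p = 0.197), and none of the 18 passed with HA155.

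For Nampt, 4 of 20 tested genes of NAD synthesis and use fell and 1 rose with LPA (median -0.10). Nnmt, which uses up nicotinamide, fell by 0.31 (SE 0.06), Nmnat1, which completes NAD after the step of Nampt, by 0.37 (SE 0.08), and the NAD-consuming Parp1 by 0.29 (SE 0.06). None of the 20 passed with HA155. Alternative complement genes, the system in which adipsin acts, were mostly dim: 3 of 9 measured were tested, and Cfb, the substrate of adipsin, rose by 0.34 with LPA (SE 0.10, limma adjusted p = 0.0279).

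Angptl4 stands between several of these lists. Of 13 tested genes of the lipoprotein lipase axis, 5 fell and 1 rose with LPA (median -0.14). The apolipoprotein gene Apoc1 fell by 1.56 (SE 0.07), the fatty acid transporter gene Cd36 fell by 1.29 (SE 0.06) and Angptl8, a relative of Angptl4 that also restrains the lipase, fell by 1.24 (SE 0.09). With HA155 2 of the 13 rose and none fell: Vldlr by 0.53 and Cd36 by 0.31 (limma adjusted p = 0.00945 and 0.0485). With LPA Vldlr measured 0.22 (limma adjusted p = 0.0702). Of 15 tested PPAR target genes, 14 fell with LPA (median -0.82), led by the lipid-droplet gene Cidec (-1.88), Gpd1 (-1.85) and Cd36. With HA155 6 rose (median 0.16): Cidec, Ehhadh, Pdk4, Plin4, Pck1 and Cd36. Pdk4, Plin4, Pck1 and Cd36 passed narrowly, with limma adjusted p-values from 0.0429 to 0.0485. The only alternative fit counted for this list left out LPA array 8, so how firm these calls are was not tested further. The PPAR list shares Lpl and Cd36 with the lipase list, and Plin1, Fabp4, Cidec and Lpl with the adipocyte markers. Pparg, among the regulators below, is an adipocyte marker too, so these counts are not separate observations. Cpt1a was the PPAR target that did not pass with LPA, at 0.13, and Angptl4, at -0.12, did not pass either.

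Hypoxia targets, among which Angptl4, Apln and Lep are often counted, moved both ways: 8 of 19 tested genes fell and 5 rose with LPA (median -0.15). Pfkfb3, a driver of glycolysis, fell by 1.42 (SE 0.06), the mitophagy gene Bnip3 by 0.83 (SE 0.07) and the aldolase gene Aldoa by 0.63 (SE 0.07). With HA155 Adm was the 1 that changed, and it fell, whereas it was among the 5 that rose with LPA.

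Of 16 regulators of adipokine transcription, 6 fell and 2 rose with LPA (median -0.19). Srebf1, a driver of lipid synthesis, fell by 1.16 (SE 0.07), the liver X receptor gene Nr1h3 by 0.99 (SE 0.08) and Pparg by 0.46 (SE 0.06). None of the 16 passed with HA155.

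**Figure D4:**
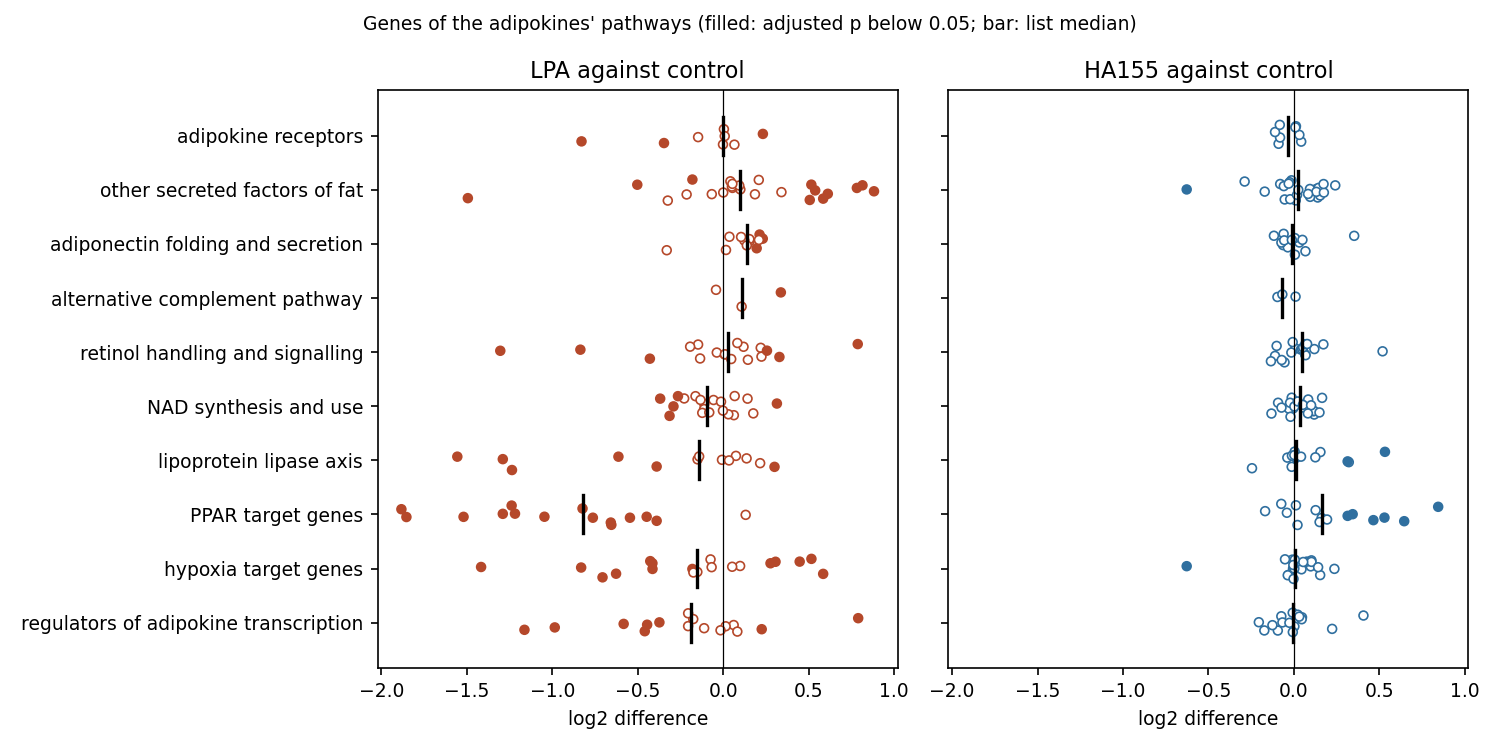
Log2 difference of every tested gene in 10 lists around the adipokines for LPA and for HA155 against control (points, filled where the adjusted p was below 0.05), with the list median as a bar. The PPAR targets lie lowest with LPA (median -0.82), and most points of the other lists stay near 0 with HA155.

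Markers of several cell types moved with the adipokine falls. All 9 adipocyte markers fell with LPA, and their summed intensity was 22145 to 23355 in the LPA arrays, against 38402 to 39764 in control. Of 4 preadipocyte markers 3 rose with LPA, with sums of 7911 to 8491 against 5837 to 6276 in control. Of 8 skeletal muscle markers 5 rose (Myh1, Actc1, Acta1, Tnnt3 and Mylpf), with sums of 1556 to 1874 against 1124 to 1209. The muscle regulator genes Myod1 (-0.03) and Myog (0.02) did not pass, nor did Ckm (0.05). Of 5 tested brown markers Cox7a1 (-1.84), Cox8b (-1.85) and the coactivator gene Ppargc1a (-0.60) fell with LPA and Zic1 (0.43) rose, and the sum of the 9 measured was 642 to 736, against 1248 to 1288 in control. The part of these shifts in the adipokine values was not tested.

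With HA155, 1 of the 9 adipocyte markers rose (Cidec, by 0.65), and the list median was 0.07. The adipocyte sums were 39814 to 41156, against 38402 to 39764 in control, so the ranges nearly met. Of the brown markers Cox7a1 (1.13) and Cox8b (1.01) rose, and the sum of the 9 measured was 2108 to 2263 with HA155, against 1248 to 1288 in control. Of 4 preadipocyte markers 1 fell, Dlk1, by 0.82, and Pdgfra (-0.14), Pdgfrb (-0.21) and Cd34 (-0.23) did not pass. The preadipocyte sum was 4723 to 5412 with HA155, against 5837 to 6276 in control. Of the 8 skeletal muscle markers 1 rose, Myh1, by 0.64 (limma adjusted p = 0.00695), as it had with LPA. None of 6 tested macrophage markers passed in either comparison, but the summed intensity of all 10 was 908 to 1058 with HA155, against 712 to 823 in control, and 695 to 1004 with LPA. The lysozyme gene Lyz2 was the brightest of the 10 (mean log2 intensity 8.81 with HA155 and 8.09 in control), so it weighed most in the sum. It was also the marker with the highest difference (log2 difference 0.72 with HA155, limma adjusted p = 0.327). The median difference of the 6 tested macrophage markers was 0.08 with HA155. Macrophages also make Nampt, and the part of these markers in its rise was not tested. Of 4 tested endothelial markers Tek rose with LPA by 0.37, and neither of 2 tested mesothelial markers passed.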

How the data were processed

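Total RNA of 9 cultures was hybridised to Affymetrix mouse gene arrays. The deposited table gives 1 intensity per probe set and array, for which the submitters' processing notes name RMA. As a method RMA corrects background, normalizes by quantiles and summarises probes, and its settings here were not stated. No source used here gives the version of RMA. The linear scale was read from the values, and array medians ran from 70.7 to 72.8. Such normalization removes a global shift and compresses changes of dim probes. The number of arrays limits precision: the median SE of a log2 difference was 0.08.

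Log2 was taken of the deposited intensity as it stood. A single gene symbol belonged to 21706 of 35432 probe sets, which gave 19858 genes, and those with a mean under the 40th percentile (5.59 on the log2 scale) were left out, leaving 13335. limma 3.58.1 (R 4.3.3) was fitted to all 9 arrays in 3 groups and its tests were two-sided, with Benjamini-Hochberg adjustment within each comparison at 0.05. The method was tested on simulated data. The permutation test used scipy 1.17.1. The labels name separate subjects, so p-values measure the spread between cultures, and they name no batch. The members and lists were chosen with earlier results of these data known. Genes named from a list are its 3 of smallest p with LPA, plus receptors and genes of few calls chosen after their values were seen. Alternatives were other filters, normalizations, offsets, variance models and leaving out each array.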

Additional observations from a re-analysis of the deposited data

How the results depend on the processing

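No paired analysis was possible because the subject numbers differ between the groups. The number of adipokine genes called with LPA against control, 5 as reported, was 4 with the filter at the 60th percentile, where Lep was not tested, and 5 under the other alternatives run. For LPA against HA155 it was 4 with that filter, 6 without LPA array 9 and otherwise 5. With HA155 the number of adipokine genes called, 2 as reported, was 1 without the intensity filter, 1 with the filter at the 60th percentile, where Lep was not tested, 1 with arrays centred on their medians, and 1 to 2 with 1 array left out. The gene lost was otherwise Nampt, at 0.32 without the filter (limma adjusted p = 0.0727), 0.33 with centred arrays (limma adjusted p = 0.0527) and 0.29 to 0.35 with 1 array left out. For LPA against HA155, leaving out 1 array gave Angptl4 values from -0.233 to -0.0811, and Apln values from -0.0339 to 0.0128, which crossed 0. With an offset of 16 the leptin to adiponectin difference was higher by 0.74 for LPA against control and by 0.33 for LPA against HA155, against 0.59 and 0.09 with none. Leaving out LPA array 8 for the lists was chosen after seeing the data. It moved the called genes for adiponectin folding to 6 against 3 for LPA, and to 1 against 0 for HA155, and the endothelial markers to 1 against 0 for HA155. Without the intensity filter HA155 changed 86 genes in all, against 138 as reported, with 338 under array weights and 39 to 232 with 1 array left out (39 without control 2, 232 without LPA array 8). The signal of Lep with LPA was close to the filter level, which limits the size of its fall.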
